A study of Mus musculus with 6 samples.

Results

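The genes described here are 10 markers of enteroendocrine cells, the hormone-secreting cells scattered through the intestinal epithelium: Chga, Chgb, Pyy, Gcg, Insl5, Tph1, Sct, Cck, Sst and Neurod1. They were taken by symbol, through their Ensembl identifiers, from the 20533 genes with a value, and all 10 were measured and passed the filter on low values, a mean of at least 1, in each comparison. Distal colon RNA of male C57BL/6 mice, wild type and 7 weeks old, was sequenced in 3 groups of 2 libraries each. The first group received 2% dextran sulfate sodium (DSS) together with montmorillonite powder, the second 2% DSS and the third water, each for 7 days. DSS is a sulfated polysaccharide that injures the colonic epithelium, and montmorillonite is an adsorbent clay, given at a dose that the labels leave unstated. No group carried a transgene or a deletion, and no label states that the 2 libraries are separate animals, so that every p-value below measures only the spread between libraries.

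Enteroendocrine cells arise from the stem cells of the crypt and are set on their fate by a cascade of transcription factors in which Neurod1 acts downstream of Neurog3. They store peptide hormones in dense granules together with granins such as chromogranin A, and release them when nutrients, microbial metabolites or irritants reach their surface receptors. In the distal colon the main kinds are L cells, which make peptide YY, proglucagon products and insulin-like peptide 5, enterochromaffin cells, which make serotonin, and D cells, which make somatostatin.

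Values are normalised read counts, that is, read counts divided by 1 factor per library, and they are given in the order replicate 1, replicate 2 of each group. The recovered reads summed to 6395768 and 4494666 in DSS plus montmorillonite, 21481594 and 15212981 in DSS, and 8936826 and 3741494 in water. A value of 1 read was 1.44 and 1.82, 0.335 and 0.479, and 0.960 and 2.27 in the same order of groups, so that low values were coarsest in water replicate 2. Groups were compared with limma on log2(value + 1), and an adjusted p below 0.05 over all genes counts as passed. All 12 general epithelial markers fixed for the check of the tissue had values, as did the distal colon factor Hoxb13, at 582 to 3997 over the 6 libraries. Several libraries stood apart within their group. The summed value of 9 stratified squamous genes was 128 and 7555 in DSS plus montmorillonite, 182 and 41994 in DSS, and 40.3 and 484 in water. The median neutrophil gene stood 2.76 and 7.80 above water (log2) in DSS plus montmorillonite and 6.33 and 7.63 above it in DSS.

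The start regions of 5 of these genes are shown because their products mark the granule (Chga, Chgb), the L cell (Gcg, Insl5) and the D cell (Sst), and because short motifs known from hormone gene promoters can be read in them. Each line holds the 250 bases before a RefSeq start site of the gene, for Insl5 the one of 2 that lies nearest to the GENCODE start, 5′ to 3′ on the strand of the gene, in build GRCm38.p6. The windows are chr12:102554691-102554940 (plus strand) for Chga, chr2:132781392-132781641 (plus) for Chgb, chr16:23890845-23891094 (minus) for Sst, chr2:62483654-62483903 (minus) for Gcg and chr4:103026729-103026978 (minus) for Insl5. The window of Chgb lies inside the GENCODE span of the gene given below, and those of Sst and Insl5 overlap theirs. Capitals mark the cyclic AMP response element TGACGTCA, its 5-letter core TGACG or CGTCA, and the E-box CAGATG or CATCTG.
Chga: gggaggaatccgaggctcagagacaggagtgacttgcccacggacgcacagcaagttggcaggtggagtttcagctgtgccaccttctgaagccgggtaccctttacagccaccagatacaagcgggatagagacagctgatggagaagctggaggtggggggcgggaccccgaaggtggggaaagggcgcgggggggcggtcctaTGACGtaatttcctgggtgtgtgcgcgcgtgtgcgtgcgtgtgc
Chgb: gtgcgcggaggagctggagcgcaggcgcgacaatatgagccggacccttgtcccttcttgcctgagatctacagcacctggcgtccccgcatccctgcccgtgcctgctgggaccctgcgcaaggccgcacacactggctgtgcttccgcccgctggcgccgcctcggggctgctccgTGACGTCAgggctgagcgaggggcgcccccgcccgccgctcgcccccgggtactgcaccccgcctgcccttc
Sst: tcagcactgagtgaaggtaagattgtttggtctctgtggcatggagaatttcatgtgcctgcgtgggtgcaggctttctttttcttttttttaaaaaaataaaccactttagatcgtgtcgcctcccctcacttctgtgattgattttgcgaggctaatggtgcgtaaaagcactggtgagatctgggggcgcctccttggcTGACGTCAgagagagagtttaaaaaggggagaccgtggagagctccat
Gcg: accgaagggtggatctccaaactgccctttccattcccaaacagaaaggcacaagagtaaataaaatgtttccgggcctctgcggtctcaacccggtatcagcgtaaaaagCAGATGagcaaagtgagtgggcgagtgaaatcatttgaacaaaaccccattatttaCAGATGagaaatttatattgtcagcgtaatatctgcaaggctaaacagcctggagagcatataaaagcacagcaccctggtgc
Insl5: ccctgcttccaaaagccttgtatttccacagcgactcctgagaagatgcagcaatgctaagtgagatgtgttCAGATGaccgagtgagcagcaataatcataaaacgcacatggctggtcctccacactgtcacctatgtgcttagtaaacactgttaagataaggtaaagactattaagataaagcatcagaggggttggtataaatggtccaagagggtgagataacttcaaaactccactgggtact
The full element lay 72 bases before the start of Chgb and 48 before that of Sst, and a core lay 44 bases before the start of Chga. The E-box CAGATG stood 139 and 83 bases before the start of Gcg and 178 before that of Insl5. Among the other members, Cck held both a core and a CAGATG, Tph1 a core and Sct a CAGATG, while Pyy and Neurod1 held neither in this window. For Tph1 and Pyy, which have 2 starts as well, the nearer one was read. Over all 32851 start regions of the same length, 1.55% held TGACGTCA, 17.8% held a core and 14.4% held CAGATG, on either strand. The full element contains its core on both strands, and CAGATG is a form of the general E-box CANNTG, found in 66.2%. These letters describe the windows and were not tested as binding sites.

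In water the order of expression, as the normalised read count per kilobase of exon, began with the L cell hormones. Pyy stood first at 1257 ± 67.5 (SD, n = 2) and Insl5 second at 372 ± 98.9. Chgb followed at 85.3 ± 15.1, Gcg at 79.9 ± 16.1 and Chga at 59.7 ± 0.346. The values of Chgb and Gcg overlapped, whereas those of Chga lay below both. Sst stood at 34.5 ± 9.23 and Sct at 18.6 ± 26.3, and their values overlapped. Tph1 (7.48 ± 3.28), Cck (6.33 ± 5.83) and Neurod1 (4.94 ± 3.45) closed the order and did not differ beyond their spread. The order of the group means was the same in DSS plus montmorillonite, with Pyy at 2260, Insl5 at 563 and Chgb at 260.3 per kilobase, and in DSS differed only in that Cck, at 24.8, stood above Tph1, at 17.3.

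The granin genes were higher in every DSS-exposed library than in either water library. Chga (ENSMUSG00000021194.6, GRCm38 chromosome 12, 102554969 to 102565028, plus strand), the gene of chromogranin A, had 406 and 398 in DSS plus montmorillonite, 388 and 203 in DSS, and 165 and 164 in water. The water libraries were nearly equal, and DSS replicate 2 lay closest to them. Its log2 fold change was 1.28 ± 0.24 (SE) in DSS plus montmorillonite against water (limma adjusted p = 0.466, unadjusted p = 0.00205) and 0.77 ± 0.34 in DSS against water (adjusted p = 0.178). Chgb (ENSMUSG00000027350.8, chromosome 2, 132781278 to 132795079, plus strand), the gene of chromogranin B, had 503 and 923 in DSS plus montmorillonite, 822 and 329 in DSS, and 263 and 205 in water. The upper values came from replicate 2 with the clay and replicate 1 without it. Its log2 fold change against water was 1.55 ± 0.36 with the clay (limma adjusted p = 0.609) and 1.16 ± 0.43 in DSS (adjusted p = 0.127), and DESeq2 on the recovered reads called Chgb in both comparisons (adjusted p = 0.0493 and 0.0199).

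**Figure D1:**
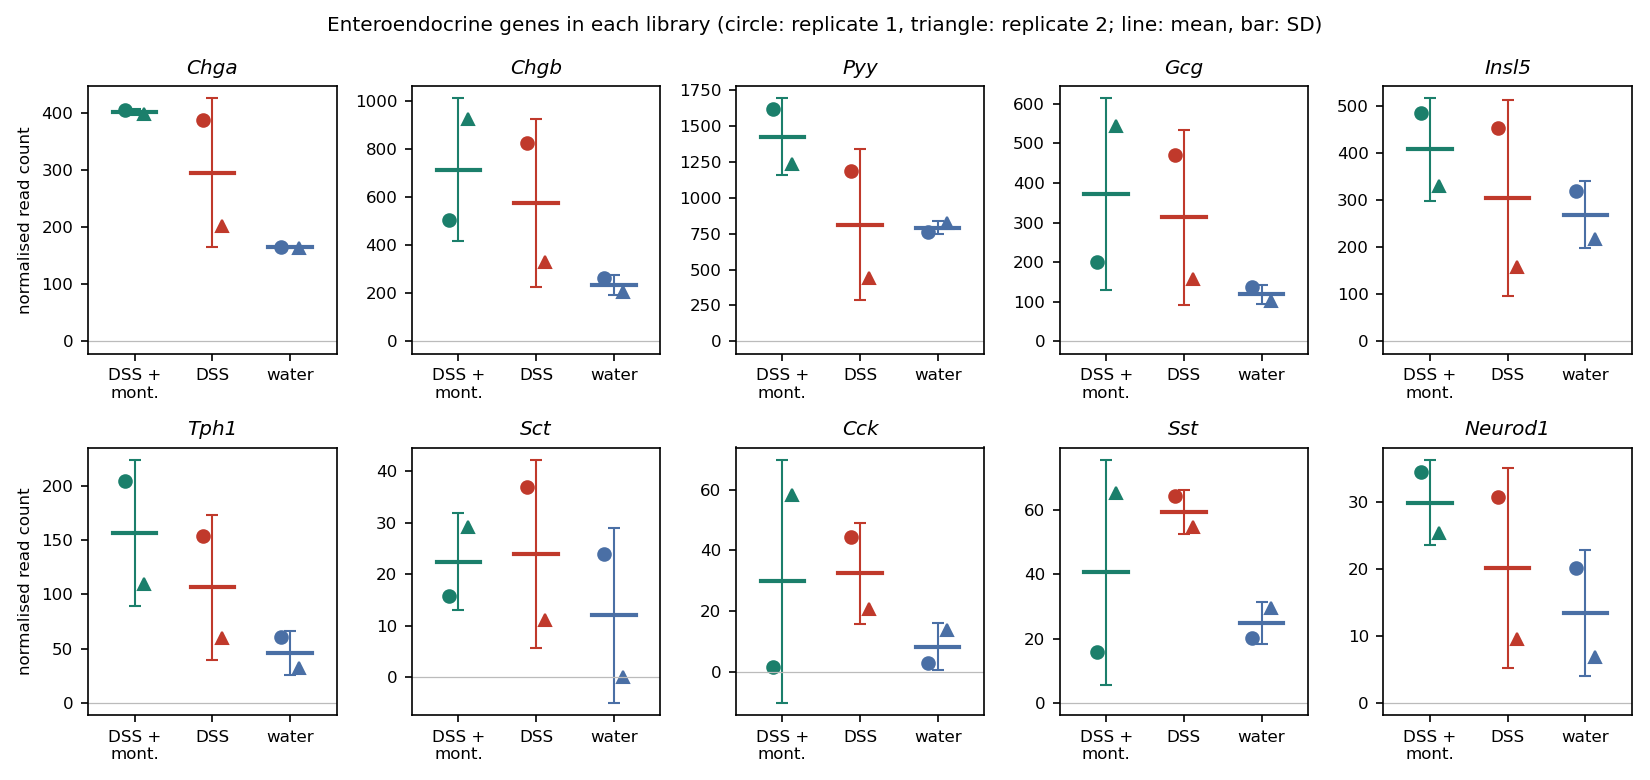
Normalised read count (vertical axes) of the 10 enteroendocrine genes, 1 panel a gene, with groups in the order DSS plus montmorillonite, DSS and water. Points are libraries, and bars are the group mean with SD (n = 2). Chga and Chgb lie above both water libraries in all 4 DSS-exposed libraries, while Cck and Sst part the DSS plus montmorillonite libraries.

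The 3 L cell hormones differed in their pattern over the libraries. Pyy (ENSMUSG00000017311.15, chromosome 11, 102106676 to 102107832, minus strand), whose product peptide YY slows transit and curbs appetite, had 1617 and 1235 in DSS plus montmorillonite, 1187 and 441 in DSS, and 763 and 823 in water. Both libraries with the clay lay above all others, and DSS replicate 2 was the lowest of the 6. The log2 fold change was 0.83 ± 0.23 with the clay against water (limma adjusted p = 0.642), 0.96 ± 0.52 against DSS (adjusted p = 0.701) and -0.13 ± 0.44 in DSS against water (adjusted p = 0.864), the last turning to 0.11 when the libraries were scaled to their totals. Gcg (ENSMUSG00000000394.15, chromosome 2, 62474530 to 62483650, minus strand) encodes proglucagon, cut in L cells to glucagon-like peptides. It had 199.9 and 543 in DSS plus montmorillonite, 470.0 and 156 in DSS, and 136 and 102 in water. All 4 DSS-exposed libraries exceeded water, by a log2 fold change of 1.47 ± 0.52 with the clay (limma adjusted p = 0.642) and 1.19 ± 0.52 in DSS (adjusted p = 0.174, and 0.0371 by DESeq2). Insl5 (ENSMUSG00000066090.5, chromosome 4, 103017872 to 103026842, minus strand), the gene of insulin-like peptide 5 and a marker of colonic L cells, had 485 and 331 in DSS plus montmorillonite, 453 and 157 in DSS, and 320 and 218 in water. The libraries with the clay exceeded water and those with DSS alone straddled it, with log2 fold changes of 0.60 ± 0.32 (limma adjusted p = 0.642) and 0.01 ± 0.50 (adjusted p = 0.989).

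Proportions between transcripts of a library were taken as 4 ratios that were chosen after the values had been seen and carry no test. The Gcg value was 0.124 and 0.440 times that of Pyy in DSS plus montmorillonite, 0.396 and 0.354 in DSS, and 0.179 and 0.124 in water. Both DSS libraries and replicate 2 with the clay were high, and replicate 1 with the clay matched the lower water library. The Insl5 value was 0.300 and 0.268 times that of Pyy in DSS plus montmorillonite, 0.381 and 0.357 in DSS, and 0.419 and 0.265 in water. Both libraries with the clay lay below both DSS libraries, and water spanned them all. The Chgb value was 1.24 and 2.32 times that of Chga in DSS plus montmorillonite, 2.12 and 1.62 in DSS, and 1.59 and 1.25 in water.

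**Figure D2:**
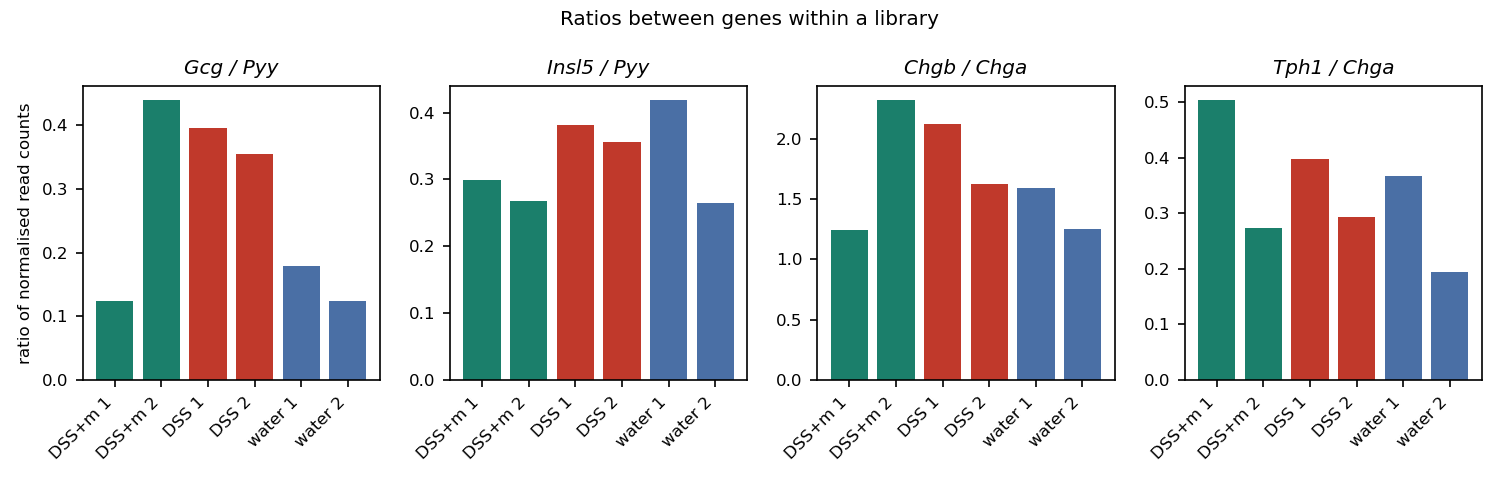
Ratio of the normalised read counts of Gcg to Pyy, Insl5 to Pyy, Chgb to Chga and Tph1 to Chga (vertical axes) in each of the 6 libraries, by group. The Gcg to Pyy ratio is at least 0.354 in both DSS libraries and in DSS plus montmorillonite replicate 2, and at most 0.179 in the other 3 libraries.

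Tph1 (ENSMUSG00000040046.14, chromosome 7, 46644641 to 46672537, minus strand) encodes the rate-limiting enzyme of serotonin synthesis in enterochromaffin cells. It had 204 and 109 in DSS plus montmorillonite, 154 and 59.4 in DSS, and 60.5 and 31.8 in water. The libraries with the clay exceeded water, whereas DSS replicate 2 lay just under the higher water library. The log2 fold change was 1.74 ± 0.52 with the clay against water (limma adjusted p = 0.642) and 1.11 ± 0.56 in DSS against water (adjusted p = 0.232). Relative to Chga, the Tph1 value was 0.504 and 0.274 in DSS plus montmorillonite, 0.397 and 0.293 in DSS, and 0.366 and 0.194 in water, with all groups overlapping. Mast cells also express Tph1. Summed, 11 mast cell genes had 174 and 601 in DSS plus montmorillonite, 554 and 894 in DSS, and 257 and 289 in water. Their median stood at -1.05 and 0.68 against water (log2) in DSS plus montmorillonite and at -0.09 and 0.34 in DSS. In DSS against water 1 of the 11, Hdc, passed. The median log2 fold change of the 11 was 0.03, beside 0.10 over all genes, and the largest was 6.67. The part of cells other than mast cells in the sum was not tested. Of the 11, 4 and 0 were at 0 in DSS plus montmorillonite, 0 and 0 in DSS, and 2 and 3 in water, in libraries that differ in depth as given above.

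The hormones of rarer cells rested on few reads. Sst (ENSMUSG00000004366.3, chromosome 16, 23889573 to 23890958, minus strand), the gene of the inhibitory hormone somatostatin, had 15.8 and 65.4 in DSS plus montmorillonite, 64.3 and 54.6 in DSS, and 20.2 and 29.6 in water. Both DSS libraries exceeded water (log2 fold change 1.25 ± 0.40, limma adjusted p = 0.0920), and replicate 1 with the clay was the lowest library of all, from 11 reads (0.39 ± 0.80 with the clay against water, adjusted p = 0.885). Cck (ENSMUSG00000032532.7, chromosome 9, 121489824 to 121495694, minus strand), the gene of cholecystokinin, had 1.44 and 58.1 in DSS plus montmorillonite, 44.2 and 20.6 in DSS, and 2.88 and 13.6 in water. Its value in replicate 1 with the clay was a single read, and replicate 2 with the clay held 40.4 times that value. The log2 fold change was 2.05 ± 0.80 in DSS against water (limma adjusted p = 0.139) and 0.67 ± 1.66 with the clay against water (adjusted p = 0.911). Sct (ENSMUSG00000038580.13, chromosome 7, 141278330 to 141279133, minus strand), the gene of secretin, had 15.8 and 29.1 in DSS plus montmorillonite, 36.9 and 11.03 in DSS, and 24.0 and 0 in water. Water replicate 2 held no read of Sct, at a depth where the limit of 3 reads is a value of 6.82, and the groups overlapped in each comparison. Its log2 fold change was 2.17 ± 1.58 with the clay (limma adjusted p = 0.696) and 2.09 ± 1.52 in DSS (adjusted p = 0.390) against water, and became -0.15 and -0.23 without that water library. In the same order edgeR gave 0.69 and 0.78 and DESeq2 0.83 and 0.91, so that the size for Sct depends on how the library at 0 is treated. Sst and Cck are also made by neurons. The median of 17 enteric neuron and glia genes stood 0.70 and 1.74 above water (log2) in DSS plus montmorillonite and 1.85 and 2.08 above it in DSS. The part of neurons or mast cells in the values of Sst, Cck and Tph1 was not tested.

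Neurod1 (ENSMUSG00000034701.9, chromosome 2, 79452521 to 79456751, minus strand), a basic helix-loop-helix factor of enteroendocrine precursors, had 34.5 and 25.4 in DSS plus montmorillonite, 30.8 and 9.59 in DSS, and 20.2 and 6.82 in water. The libraries with the clay exceeded water, and DSS overlapped it. The log2 fold change was 1.25 ± 0.74 with the clay (limma adjusted p = 0.652) and 0.51 ± 0.79 in DSS (adjusted p = 0.691). Neurod1 lies inside the span of Cerkl on the same strand, whose own values were 2.88 and 1.82, 5.03 and 4.31, and 0.960 and 2.27 in the same order of groups. Neurod1 also overlaps Gm26755 on the opposite strand, a gene without a value here. No other member overlaps an annotated gene.

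Counted together, none of the 10 genes passed a limma adjusted p below 0.05 in any of the 3 comparisons. In DSS plus montmorillonite against water 0 of 10 passed, where 0% of the 19785 genes tested passed. At an unadjusted limma p under 0.05 stood 5 of 10 members, beside 1499 of the 19785 genes. DESeq2 called 1 member, beside 1.31% of its genes, and edgeR 0, beside 0%. All 10 had a positive log2 fold change and 7 did not overlap water, beside 53.5% of all genes with a positive fold change and 21.9% higher without overlap, and the median was 1.27 beside 0.05 over all genes. In DSS against water 0 of 10 passed, where 15.2% of the 20287 genes tested passed. At an unadjusted limma p under 0.05 stood 3 of 10 members, beside 6612 of the 20287 genes. DESeq2 called 2 members, beside 23.9% of its genes, and edgeR 0, beside 19.8%. Of the 10, 9 had a positive fold change and 5 were higher without overlap, beside 55.1% and 34% of all genes, with a median of 1.13 beside 0.10. In DSS plus montmorillonite against DSS 0 of 10 passed, where 0% of 20316 genes passed. At an unadjusted limma p under 0.05 stood 0 of 10 members, beside 1467 of the 20316 genes. DESeq2 called 0 members, beside 0.569% of its genes, and edgeR 0, beside 0%. Fold changes were positive for 8 members and negative for Cck (-1.38 ± 1.59) and Sst (-0.85 ± 0.76), beside 45.6% of all genes positive. Chga (0.52 ± 0.39, limma adjusted p = 0.752) and Pyy were higher without overlap, beside 19.3% of all genes, and the adjusted p of all 10 lay between 0.701 and 0.980. The comparisons with water share the water libraries and the comparisons with DSS share the DSS libraries, so their values stand side by side and are not independent.

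**Figure D3:**
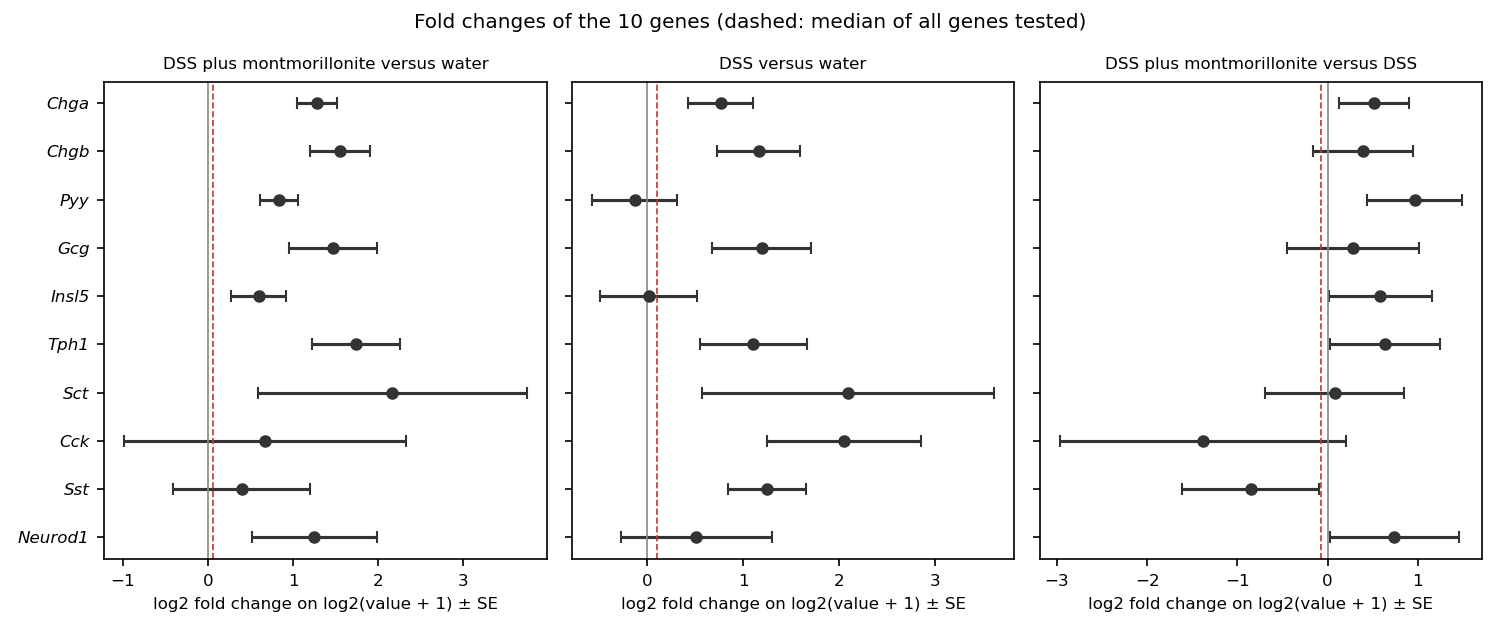
Log2 fold change of each of the 10 genes on log2(value + 1), with SE, in DSS plus montmorillonite against water, DSS against water and DSS plus montmorillonite against DSS, from limma fits of the 4 libraries compared. Dashed lines mark the median of all genes tested, and points right of 0 are higher in the first group named. None of the 30 differences passed an adjusted p of 0.05.

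The libraries of a group differed in these genes. Replicate 2 of DSS was lower than replicate 1 for 10 of 10 members, at 0.299 to 0.850 of its value, beside 51.3% of all genes lower. Between the DSS plus montmorillonite libraries 5 members were lower and 5 higher in replicate 2, beside 48.3% of all genes lower. Gcg, Chgb, Sct, Cck and Sst made up the higher 5, with 2.72 times as much Gcg and 4.13 times as much Sst. Chga, Pyy, Insl5, Tph1 and Neurod1 made up the lower 5, with Tph1 at 0.534. The summed value of the 10 genes was 3482 and 3717 in DSS plus montmorillonite, 3650 and 1442 in DSS, and 1775 and 1594 in water. Without DSS replicate 2, the library with the high squamous sum, the median of the members in DSS against water was 1.57 with 10 positive, and without DSS replicate 1 it was 0.41 with 7 positive. Without DSS plus montmorillonite replicate 1 or 2 the median against water was 1.34 or 1.07. Against DSS, the median of 0.45 became -0.22, with 2 members positive, when DSS replicate 2 was left out.

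Across the 6 libraries the members fell into loosely shared patterns, given as Pearson correlations of log2(value + 1) that describe these libraries and share their depth and groups. Chgb and Gcg, whose start regions are printed above, had r = 0.98, Cck and Sst 0.97, and Chga and Chgb 0.93. Tph1 and Neurod1 had 0.93, and Insl5 had 0.91 with both Pyy and Neurod1. Sst had -0.22 with Pyy and -0.25 with Insl5. Among the 13914 genes whose mean value reached 20, those most like Chga were Tent4b, Tnrc6c and Caprin2 (r of 0.98 each), and the r of the genes named here lay between 0.975 and 0.997. Those most like Chgb were Igkv12-41, Acp2 and Sf3b1, and those most like Gcg were Dapp1, Ift88 and B4galt6. For Pyy they were 9530018F02Rik and Mfsd4a, for Insl5 AI987944, Zfp429 and Rnf14, and for Tph1 Dmtf1, Nktr and 4932438A13Rik. For Neurod1 they were 1810026B05Rik, Yipf5 and Dnm1l, for Cck Ighv1-12, Zc3h8 and Ppcdc, and for Sst Rhobtb2, Tnfaip8l2 and Tlr6. An r above 0.95 was shared with Sst by 205 genes and with each of the other 8 members by 8 to 36. How many of the 13914 genes would reach such an r over 6 libraries without any relation was not tested. None of these genes belonged to the marker lists used here, and Sct lay under the mean of 20.

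General epithelial markers fell in DSS, where none of the 10 hormone genes passed in either direction. The mean of the 12 general epithelial markers stood at 0.13 and -0.69 against water (log2) in DSS plus montmorillonite and at -1.10 and -1.75 in DSS, and 9 of the 12 fell in DSS against water with a median log2 fold change of -1.47. The median of the 10 hormone genes stood at 1.07 and 1.34 in DSS plus montmorillonite and 1.57 and 0.41 in DSS. Taken relative to the epithelial mean of the same library, a scaling chosen after seeing the data, the members stood at 0.94 and 2.03 above water in DSS plus montmorillonite, with 8 and 10 of 10 above it, and at 2.68 and 2.16 in DSS, with all 10 above it in each library. On that scale all 10 members were higher in DSS than in water at a limma adjusted p below 0.05, with log2 fold changes from 1.29 to 3.35, but so were 58.2% of all genes, whose median was 1.46. On the same scale 0 of 10 passed in DSS plus montmorillonite against water and 0 against DSS, where the members' log2 fold changes ran from -2.34 to -0.18 beside a median of -1.16 over all genes. In bulk RNA a change in the number of cells of a type and a change in RNA per cell cannot be told apart.

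**Figure D4:**
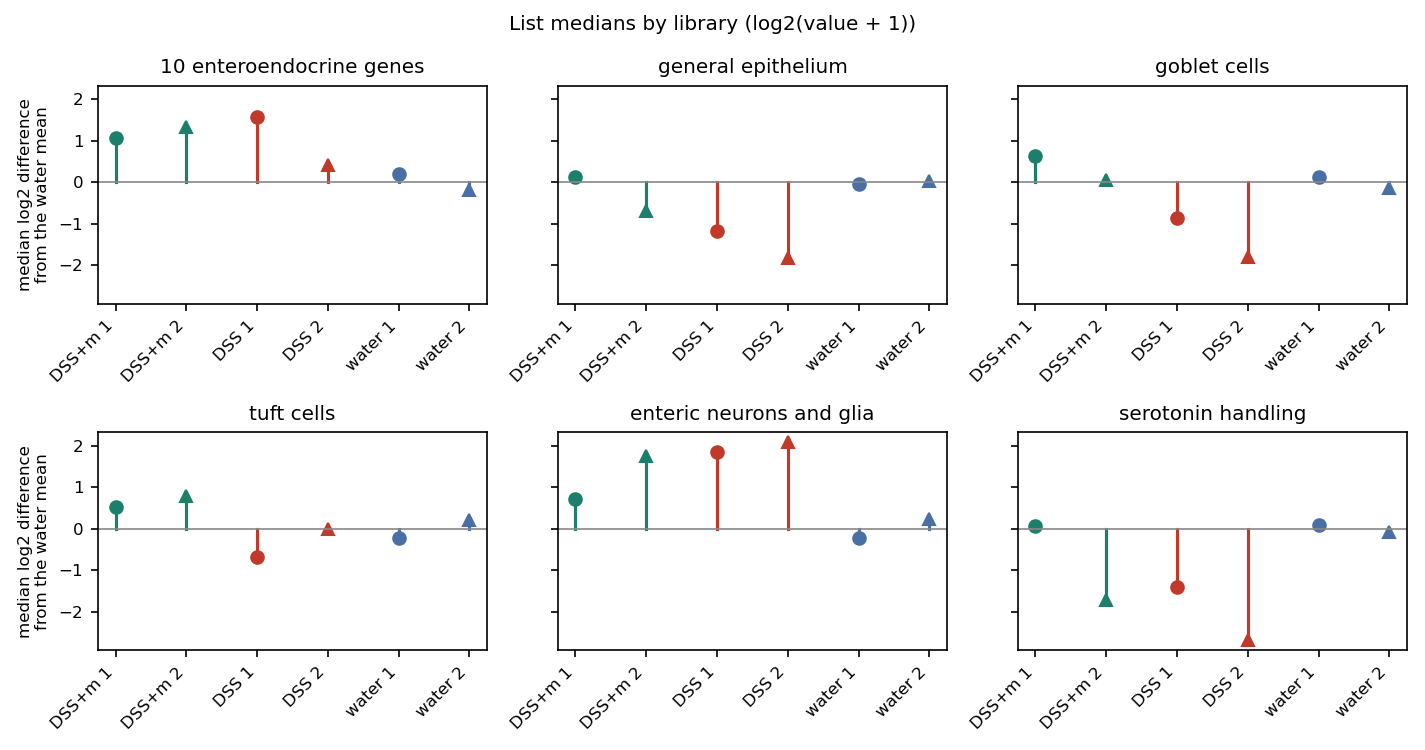
Median log2(value + 1) minus the water mean over the genes of each list (vertical axis) in the 6 libraries, for the 10 hormone genes, the general epithelium, goblet cells, tuft cells, enteric neurons and glia, and serotonin handling. The median of the hormone genes lies above water in all DSS-exposed libraries. Of the 10 genes, 8 and 10 lie above the water mean in DSS plus montmorillonite, and 10 and 7 in DSS. The general epithelial list lies at 0.12 and -0.69 in DSS plus montmorillonite and at -1.18 and -1.82 in DSS.

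Lists of further enteroendocrine genes, written from textbook knowledge, gave single genes that passed in DSS against water. These calls come from the fit of the 4 DSS and water libraries, where 7.95% of all genes passed as higher and 7.28% as lower. Over all genes, of which 3089 passed, 0 passed without DSS replicate 1 or without DSS replicate 2, 391 passed without water replicate 1 and 416 without water replicate 2, in fits that leave 1 library in a group, and 0 when all 6 libraries were fitted together. How far log2 fold changes moved without 1 library differed between genes. Slc6a4 stayed between -3.45 and -3.26, Maob between -2.69 and -2.37 and Tac1 between 1.35 and 1.72. Ranges were wider for Ddc (-2.88 to -1.40), Foxa2 (-3.08 to -1.49) and Htr4 (-3.96 to -1.97). No gene of any list passed in DSS plus montmorillonite against water or against DSS. Of 11 other hormone and peptide genes 5 rose, none fell and 6 did not pass, with a median log2 fold change of 1.53. Tac1, the precursor of substance P, had 583 and 1259 in DSS plus montmorillonite, 547 and 501 in DSS, and 158 and 205 in water (1.53 ± 0.22 in DSS against water, limma adjusted p = 0.0118). Nucb2, the precursor of nesfatin, had 93.5 and 362 in DSS plus montmorillonite, 228 and 237 in DSS, and 113 and 84.1 in water (adjusted p = 0.0289 in the same fit by limma). Gal, the galanin gene, had 7.19 and 41.8 in DSS plus montmorillonite, 99.8 and 72.4 in DSS, and 1.92 and 0 in water. Gal had 449 reads in DSS and 2 in water, 65.6 times as many per unit of depth (exact 95% counting interval 18.1 to 543), and Cartpt was 5.27-fold higher. Adcyap1 had no read in water and was at least 3.70-fold higher in DSS, against 3 reads over the group. Pcsk1n, an inhibitor of prohormone cleavage, had 97.8 and 144 in DSS plus montmorillonite, 97.5 and 119.8 in DSS, and 27.8 and 72.8 in water, and did not pass. Tac1, Gal, Cartpt and Adcyap1 are also genes of enteric neurons, whose list rose in 9 of 17 genes with a median of 2.05, and the part of neurons in these values was not tested. Counting intervals and limits cover counting error only.

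Among 19 transcription factors of the enteroendocrine lineage 2 rose and 2 fell in DSS against water, with a median of 0.13. The remaining 15 did not pass. Etv1, among those that rose, was 2.78-fold higher in DSS than in water, and the part of neurons and other cells in its values was not tested. Hes6 and Foxa2 fell. Scaled to the epithelial markers, Hes6 stood 0.52 above water (log2) and did not pass (limma adjusted p = 0.272), beside a median of 1.46 over all genes. On that scale Foxa2 stood at -0.88 and did not pass (limma adjusted p = 0.138). Foxa2 fell to 86.8 and 28.3 in DSS, against 249 and 243 in water, with 180 and 32.7 in DSS plus montmorillonite. Foxa1 had 683 and 414 in DSS plus montmorillonite, 438 and 332 in DSS, and 728 and 621 in water (limma adjusted p = 0.0543). Neurog3, the factor that starts the lineage, was chosen after its values were seen and had at most 10.4 in any library. Of 20 granin, processing and granule genes Ptprn (5.53-fold) and Rab3c (3.74-fold), both of the granule membrane machinery, rose and 18 did not pass, with a median of 0.61. Both are also neuronal genes, and the part of the enteric neurons, whose list rose as given above, was not tested. Syt7, a calcium sensor of granule release, had 268 and 165 in DSS plus montmorillonite, 114 and 54.2 in DSS, and 249.6 and 134 in water, and did not pass. Pam, which amidates peptides, had 1582 and 1999 in DSS plus montmorillonite, 1646 and 1792 in DSS, and 1125 and 1158 in water (limma adjusted p = 0.0562 in DSS against water). Cpe, which trims processed hormones, had 689 and 1503 in DSS plus montmorillonite, 709.9 and 1043 in DSS, and 425 and 641 in water (limma adjusted p = 0.143). Of 12 nutrient and metabolite receptors Trpa1 (9.33-fold), Ffar1 (8.75-fold) and Trpm2 (4.36-fold) rose and 9 did not pass. Ffar1 had 1.44 and 30.9 in DSS plus montmorillonite, 81.7 and 34.0 in DSS, and 3.84 and 6.82 in water. Of these values, 1.44 was a single read and 6.82 was 3 reads. Trpm2, also a channel of neutrophils, had 48.9 and 238 in DSS plus montmorillonite, 113 and 173 in DSS, and 30.7 and 31.8 in water. The summed value of 10 neutrophil genes was 199.9 and 9719 in DSS plus montmorillonite, 3617 and 14841 in DSS, and 54.7 and 91.0 in water. The part of neutrophils and of neurons in the values of these receptors was not tested. Trpa1, the irritant channel of enterochromaffin cells, had 5.75 and 36.3 in DSS plus montmorillonite, 219 and 107 in DSS, and 8.64 and 27.3 in water. Olfr78, a short-chain fatty acid receptor, had 135 and 138 in DSS plus montmorillonite, 47.6 and 40.3 in DSS, and 116 and 63.7 in water, so that both DSS libraries were the lowest, and it did not pass (limma adjusted p = 0.162). Gpr35 had 210.0 and 218 in DSS plus montmorillonite, 319 and 176 in DSS, and 227 and 268 in water. Both libraries with the clay lay below water, those with DSS alone on either side of it, and it did not pass.

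Genes for the completion, reuptake and breakdown of serotonin, Ddc, Slc6a4, Maoa and Maob, fell in DSS, where Tph1 had 154 and 59.4, against 60.5 and 31.8 in water. Of 7 genes of serotonin synthesis, storage and clearance, counted without Tph1, 4 fell, none rose and 3 did not pass in DSS against water, with a median of -2.14. Slc6a4, the serotonin transporter of the epithelium and of neurons, had 413 and 120 in DSS plus montmorillonite, 39.5 and 35.5 in DSS, and 419 and 368 in water. Replicate 1 with the clay stood at the water level, and both DSS libraries stood at about the same low value (log2 fold change -3.36 ± 0.25 in DSS against water, limma adjusted p = 0.00342). The monoamine oxidase gene Maoa had 5707 and 1096 in DSS plus montmorillonite, 1391 and 630 in DSS, and 6949 and 6277 in water (-2.82 ± 0.37, limma adjusted p = 0.0101). Maob fell to 88.1 and 71.4 in DSS, against 518 and 414 in water, with 305 and 70.9 in DSS plus montmorillonite. Ddc, the decarboxylase that completes serotonin synthesis and is also made by absorptive cells, had 690 and 233 in DSS plus montmorillonite, 356 and 128 in DSS, and 996 and 891 in water (-2.14 ± 0.46, limma adjusted p = 0.0326). Gch1, which makes the cofactor of Tph1, had 589.7 and 534 in DSS plus montmorillonite, 369.8 and 307 in DSS, and 430.0 and 429.8 in water, and did not pass. The vesicular transporter genes Slc18a1 (log2 fold change -0.03) and Slc18a2 (0.74), named after their values were seen, did not pass either. The epithelial list fell as given above. Scaled to it, the log2 fold changes in DSS against water were -1.95 for Slc6a4, -1.39 for Maoa and -1.11 for Maob, each still passing (limma adjusted p = 0.0055, 0.0065 and 0.042), whereas Ddc, at -0.72, no longer passed (adjusted p = 0.141). On that scale, chosen after seeing the data, 0.927% of the 20495 genes tested passed as lower, and the median of all genes was 1.46.

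**Figure D5:**
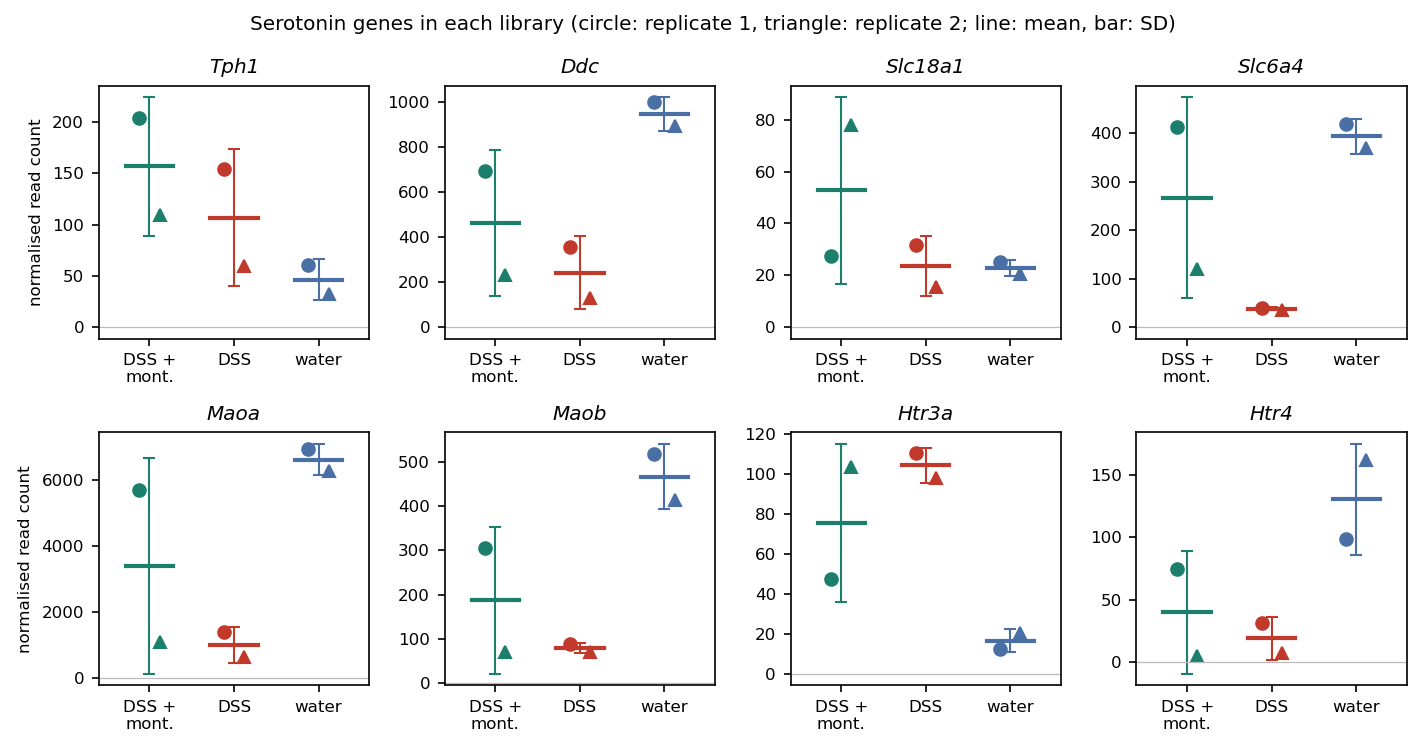
Normalised read count (vertical axes) of Tph1, of genes that complete, store, transport or degrade serotonin, and of the receptors Htr3a and Htr4, in each library by group, with points for libraries and bars for the mean with SD (n = 2). Tph1 is 154 and 59.4 in DSS and 60.5 and 31.8 in water, so that these groups overlap. Slc6a4 is 39.5 and 35.5 in DSS and at least 368 in water.

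Receptors for these hormones and for serotonin moved both ways. Of 18 tested, Htr2b, Htr3a and Sstr2 rose and Npy1r and Htr4 fell in DSS against water. Npy1r, a receptor of the peptide YY family, had 7.19 and 18.2 in DSS plus montmorillonite, 23.5 and 13.4 in DSS, and 122 and 116 in water, so that all 4 DSS-exposed libraries lay far below water (limma adjusted p = 0.0142 for DSS, and 0.0566 when scaled to the epithelial markers). Htr3a, the ion channel receptor for serotonin, had 47.5 and 104 in DSS plus montmorillonite, 111 and 98.3 in DSS, and 12.5 and 20.5 in water (6.19-fold in DSS against water, adjusted p = 0.0149 by limma). Htr4, the receptor through which serotonin promotes motility, had 74.8 and 5.45 in DSS plus montmorillonite, 31.5 and 7.19 in DSS, and 98.9 and 161 in water. Sstr2, a somatostatin receptor, had no read in water and was at least 3.02-fold higher in DSS. The part of enteric neurons and other cells in the values of these receptors was not tested. Glp2r, the receptor of glucagon-like peptide 2, had 106 and 96.3 in DSS plus montmorillonite, 102 and 77.2 in DSS, and 109 and 127 in water (limma adjusted p = 0.381 for DSS). Dpp4, the protease that inactivates glucagon-like peptides, had 276 and 153 in DSS plus montmorillonite, 269 and 88.2 in DSS, and 383 and 291 in water, and did not pass. Other secretory lineages served as markers beside the hormone genes. Of 9 goblet cell genes 2 fell, with a median of -1.19. Of 7 tuft cell genes 2 rose, Dclk1 and Alox5ap (named after their values were seen), and 5 did not pass. The median of the tuft list was -0.35. The part of neutrophils, neurons and other cells in Dclk1 and Alox5ap was not tested. Of the remaining lists, 1 of 11 mast cell genes, Hdc, and 7 of 10 neutrophil genes rose, 0 of 9 squamous genes passed, 1 of 9 smooth muscle genes fell and 3 of 7 genes of distal position fell, Hoxa13, Hoxd13 and Hoxb13. Medians of the hormone, goblet and tuft lists in DSS plus montmorillonite against water were 1.27, 0.47 and 0.77, with 0 genes called.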

How the data were processed

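RNA sequencing of 6 libraries gave 1 deposited signal value per gene and library. Per the submitters' processing notes the build was mm10 (GRCm38); no source used here names the aligner, the counter or the normalization. In every library 100% of the authors' deposited values were whole multiples of 1 read, within 0.01 read, so reads had been divided by a factor of the library, equal to DESeq2's size factor. Genes had at least 10 reads over the 6 libraries. GENCODE M21 named 20500 of 20533 identifiers.

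The test was limma 3.58.1 (R 4.3.3) with an intensity trend on log2(value + 1), in the 4 libraries of each comparison, over genes with a mean of at least 1, two-sided, with Benjamini-Hochberg adjustment over all genes and a threshold of 0.05. The added 1 shrinks fold changes of low genes, while a library at 0 weighs heavily. Called or "passed" means under that threshold, and "rose" or "fell" is used of such genes. The smallest p of an exact permutation test of 2 libraries against 2 is 0.333, so none was used. As alternatives, count tests used the recovered reads (edgeR 4.0.16, which called 3259 genes in DSS against water, and DESeq2 1.42.0), beside other pseudocounts, filters, scalings, a fit of 6 libraries, a replicate block and fits without each library.

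The 10 members and the 15 other lists were chosen with earlier results of these data known, as was the use of fits of 4 libraries. Named genes were all members, genes of the 6 other enteroendocrine lists that passed or had the 3 highest means, and the 3 genes most like each member. Some genes that this rule takes are not reported here. Start regions came from RefSeq (GRCm38.p6), in which all 10 members matched.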

Additional observations from a re-analysis of the deposited data

How the results depend on the processing

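None of the 10 hormone genes passed in any comparison under limma with other pseudocounts, filters or scaling to library totals or TMM, in the fit of all 6 libraries, under edgeR or without any 1 library. The exceptions in DSS against water were 2 members called by DESeq2, 3 with the replicate number as a block (Chgb, Gcg and Tph1) and 10 with scaling to the epithelial markers, and in DSS plus montmorillonite against water 1 by DESeq2. Over all genes, the 3089 called in DSS against water became 0 in the fit of 6 libraries, 5139 with the replicate block and 12109 with epithelial scaling, and 0 to 416 when 1 library was left out. The 0 called in DSS plus montmorillonite against water became 200 by DESeq2, and the 0 called against DSS became 76 by DESeq2 and 0 to 675 when 1 library was left out, 675 without DSS plus montmorillonite replicate 2. At an unadjusted p under 0.05 these last comparisons held 1499 and 1467 genes. Scaling to library totals moved the median of all genes in DSS against water from 0.10 to 0.33. The labels do not say that replicate numbers pair libraries, and same-numbered libraries had deviations correlated at 0.160 to 0.409 between groups. Log2 fold changes turned sign for these genes in DSS against water: Pyy (0.11) and Gpr35 (0.18) with scaling to library totals, Pyy (0.059) and Gpr35 (0.028) by edgeR, Pyy (0.044) and Gpr35 (0.015) by DESeq2, and Pyy (1.29), Foxa1 (0.61), Hes6 (0.52), Syt7 (0.21), Gpr35 (1.37), Olfr78 (0.44), Gch1 (1.07), Dpp4 (0.31) and Glp2r (1.01) with epithelial scaling. In DSS plus montmorillonite against DSS, epithelial scaling gave Chga (-0.63), Chgb (-0.76), Pyy (-0.18), Gcg (-0.86), Insl5 (-0.56), Tph1 (-0.50), Sct (-1.01) and Neurod1 (-0.35), and Sct (-0.17), Sct (-0.15) and Sct (-0.12) came from library totals, edgeR and DESeq2. With 1 library left out, signs turned within the ranges of Gpr35 (-0.48 to 0.37), Insl5 (-0.74 to 0.77), Neurod1 (-0.28 to 1.31), Pyy (-0.84 to 0.58) and Sct (-0.23 to 4.42) in DSS against water, Cck (-1.63 to 2.97), Sct (-0.15 to 4.49) and Sst (-0.60 to 1.38) in DSS plus montmorillonite against water, and Cck (-3.68 to 0.92), Chgb (-0.27 to 1.05), Gcg (-0.51 to 1.07), Insl5 (-0.18 to 1.34), Neurod1 (-0.054 to 1.53), Sct (-0.75 to 0.90), Sst (-1.84 to 0.14) and Tph1 (-0.043 to 1.31) against DSS. The cause was not tested beyond the libraries and scalings named. Every gene of the other enteroendocrine lists that passed in DSS against water did so in the fit of those 4 libraries and not in the fit of 6. The edgeR filter removed Cck in DSS plus montmorillonite against water, and DESeq2 gave no adjusted p for Sct and Neurod1 against DSS. A value of 1 read in water replicate 2 was 2.27, which limits what can be read from Cck, Sct and Neurod1.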
